A study of Mus musculus with 19 samples.

Results

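The mitochondrial ribosomal protein genes are the nuclear genes for the protein part of the ribosome inside mitochondria. They were taken as every single gene symbol of the array's annotation that starts with Mrpl or Mrps and a digit. This rule gave 76 of the 18193 genes with a single symbol, 47 Mrpl and 29 Mrps genes, on 156 probe sets. All 76 lay above the filter on low values, a mean log2 intensity of 5.54 over the arrays, as did 13460 genes in all. Each gene was read from its probe set with the highest mean. The symbols carry history. Mrps18a and Mrps30 encode proteins of the large subunit, and Mrps36 encodes a subunit of the 2-oxoglutarate dehydrogenase complex. By the proteins' known places, 49 members belong to the large subunit, 28 with and 21 without a bacterial counterpart. The small subunit has 26, 16 with and 10 without a counterpart.

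Messenger RNA of sciatic nerve, the main nerve of the hind limb, was measured on Affymetrix arrays in 4 groups of DBA/2J mice, an inbred strain. The groups were diabetic mice given rosiglitazone (DR, 5 arrays), diabetic mice given vehicle (DV, 5), control mice given rosiglitazone (CR, 5) and control mice given vehicle (CV, 4). Diabetes was of type 1 and made with streptozotocin (STZ), a toxin of insulin-producing cells, and rosiglitazone is a glucose-lowering drug that activates PPAR gamma, a nuclear receptor abundant in fat. The design planned 5 mice a group with 1 array each, and the authors left out 1 control array after quality control. All mice share strain and tissue. Their age, the doses and the length of diabetes are not given in the sources used here. Streptozotocin diabetes is started by a toxin, unlike human type 1 diabetes. Arrays are named by group and the number in their titles.

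The mitochondrial ribosome translates the few messenger RNAs of mitochondrial DNA, all of them for membrane subunits of the respiratory chain and ATP synthase. Its RNAs come from the mitochondrial genome, while its proteins are translated in the cytosol and imported. Compared with its bacterial relatives it has less RNA and many added proteins. Axons of peripheral nerve and the Schwann cells around them depend on mitochondria, and inherited defects of several of these proteins cause combined respiratory chain deficiency in humans.

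Promoter sequence was set beside the members because nuclear genes for mitochondrial proteins often hold sites of the factors NRF1, YY1 and the ETS family. RefSeq promoters of build GRCm38.p6, 250 bases before and 50 after the start of transcription, were listed for 67 of the 76 members. Short words were searched on both strands, GCGCATGCG for NRF1, CCGGAAG for ETS factors and AAGATGGCG for YY1. These words do not contain one another, and the NRF1 word can overlap its own reverse complement. At least 1 word was in 35 of the 67 members (52.2%), against 12.7% of all 27025 genes with a listed promoter and 19.3% of the 14369 of them on the array. The ETS word was in 25 (37.3%, against 9.93% of all and 15.0% of those on the array), the YY1 word in 8 (11.9%, against 1.64% and 2.54%) and the NRF1 word in 7 (10.4%, against 1.95% and 3.10%). Member promoters had a median GC content of 58.7%, against 52.7% for all promoters, and a median of 21 CpG, against 7, and each word holds CG. The part of base composition in these shares was not tested. The 5 promoters below belong to members whose values are given in detail, chosen after these were seen. They are written from the gene's own strand with the matched word in capitals.
Mrpl35, chr6:71823735-71824034, minus strand, YY1 word: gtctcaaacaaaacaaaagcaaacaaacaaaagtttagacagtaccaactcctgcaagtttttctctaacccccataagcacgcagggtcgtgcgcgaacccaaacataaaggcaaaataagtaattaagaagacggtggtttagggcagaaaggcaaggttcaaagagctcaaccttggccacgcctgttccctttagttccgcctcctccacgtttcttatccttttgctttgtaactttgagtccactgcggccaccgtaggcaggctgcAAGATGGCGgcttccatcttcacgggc
Mrpl42, chr10:95501900-95502199, minus strand, YY1 word: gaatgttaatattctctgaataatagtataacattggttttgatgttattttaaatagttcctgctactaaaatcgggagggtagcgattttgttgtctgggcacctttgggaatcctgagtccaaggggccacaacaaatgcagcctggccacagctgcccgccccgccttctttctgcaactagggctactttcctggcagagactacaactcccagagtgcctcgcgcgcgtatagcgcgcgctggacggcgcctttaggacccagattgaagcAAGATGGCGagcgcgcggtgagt
Mrpl39, chr16:84735195-84735494, minus strand, NRF1 word on both strands: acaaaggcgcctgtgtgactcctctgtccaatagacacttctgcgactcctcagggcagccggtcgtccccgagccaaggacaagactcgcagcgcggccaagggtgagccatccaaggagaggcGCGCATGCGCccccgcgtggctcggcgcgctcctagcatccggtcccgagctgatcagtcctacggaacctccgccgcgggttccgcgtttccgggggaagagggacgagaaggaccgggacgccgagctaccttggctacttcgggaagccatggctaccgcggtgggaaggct
Mrps18a, chr17:46110754-46111053, plus strand, ETS word, then YY1 word: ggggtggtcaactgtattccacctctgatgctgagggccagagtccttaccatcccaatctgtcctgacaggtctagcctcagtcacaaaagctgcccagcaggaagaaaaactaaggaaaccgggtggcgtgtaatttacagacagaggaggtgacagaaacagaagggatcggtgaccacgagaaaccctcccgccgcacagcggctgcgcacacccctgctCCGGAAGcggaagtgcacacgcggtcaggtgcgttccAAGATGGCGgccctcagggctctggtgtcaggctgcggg
Mrps27, chr13:99344536-99344835, plus strand, ETS word reversed, then YY1 word: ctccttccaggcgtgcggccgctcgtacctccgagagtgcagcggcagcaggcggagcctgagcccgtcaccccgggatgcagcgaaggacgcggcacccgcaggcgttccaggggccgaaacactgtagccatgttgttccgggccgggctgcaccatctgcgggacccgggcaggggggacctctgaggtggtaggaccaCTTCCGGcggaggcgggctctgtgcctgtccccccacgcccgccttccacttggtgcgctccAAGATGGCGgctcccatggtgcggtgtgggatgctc

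On the log2 scale the median SD over the 19 arrays was 0.247 for the 76 members and 0.331 for all tested genes. The members were also brighter, with a median of the gene means of 11.03 against 9.59. The SDs were not compared at like intensity. Mrpl11, Mrpl33, Mrps23 and Mrpl52 varied least, with SDs of 0.051, 0.066, 0.090 and 0.094, and all but Mrps23 encode large-subunit proteins. Mrpl50, Mrps34, Mrpl20 and Mrpl14 varied most, with SDs of 0.62, 0.56, 0.56 and 0.56. Mrpl50 and Mrps34 are additions of the mitochondrial ribosome, while Mrpl20 and Mrpl14 have bacterial counterparts. Mrpl52, Mrps6, Mrpl11 and Mrpl51 were bright probe sets, with means between 12.64 and 13.56, and Mrps27, Mrpl45, Mrps5 and Mrpl38 were dim, with means between 8.08 and 9.11. Such levels depend on the probes and are not compared between single genes.

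Before groups were compared, 3 arrays stood apart in the members' level, the mean over the 76 genes after each is centred on its mean over 19 arrays. The level was -0.34 in DV706, -0.33 in DV707 and 0.36 in CR715, and between -0.10 and 0.14 on the other 16 arrays. DV706 and DV707 also had 3' minus 5' differences of the Gapdh control probe sets of 3.71 and 4.38, a measure used to follow the breakdown of RNA. The difference was 1.75 in DR716 and 1.00 to 1.37 on the other 16 arrays. The Gapdh difference had group means of 2.31 in DV and 1.23 in CV, and the two-sided exact permutation test over 126 splits gave p = 0.405. The mean of DR minus that of DV was -1.11, for which the exact permutation test over 252 splits gave p = 0.206, and the adjusted p over 4 comparisons was 0.81 for both. The large values in DV were those of DV706 and DV707, and the other DV arrays read 1.09 to 1.24. In many splits DV706 and DV707 fall in the same group. These tests therefore cannot decide whether RNA quality was balanced between the groups. The part of the Gapdh difference and that of RNA quality in the members' values were not tested. CR715 was instead the array with the highest adipocyte and brown fat marker levels, 2.58 and 1.96 against at most 1.57 and 0.46 elsewhere. Ucp1, the uncoupling protein of brown fat, read 11.04 there and 4.46 to 6.27 on the others. The brown fat markers not highest there were Ppargc1a, Prdm16 and Elovl3. Ppargc1a read 8.48 in CR715 and 8.31 to 10.05 on the others, and Prdm16 9.54 and 9.17 to 10.26. Elovl3 read 3.90 there and 4.91 in DV707. All 12 adipocyte and 5 of 8 brown fat markers were highest in CR715, and 8 of 10 myelin and Schwann cell markers were lowest, with a level of -1.02 against -0.63 to 0.37. Transcripts typical of sensory neurons, whose somata sit in ganglia beside the spinal cord, were high on most arrays, with levels between -0.19 and 2.02. They were low in DR716, DV706, DV707, DV709 and CR715, with levels of -3.23 to -2.78, and no CV array was among these. Isl1, a marker of this list, read 3.83 to 6.41 on those 5 arrays and 9.47 to 11.35 on the others. The groups thus differ unevenly in these transcripts, and their part in the members' values was not tested. Skeletal muscle markers ranged over the arrays from -2.43 to 3.55, with 2.38 in CR715. Their mean level was 0.95 ± 2.10 in DR, -0.55 ± 2.47 in DV, 0.32 ± 1.79 in CR and -0.90 ± 1.39 in CV (SD, n = 5, 5, 5 and 4), so both rosiglitazone groups lay above their vehicle groups with wide overlap, and adipocyte markers did likewise, at 0.12, -0.63, 0.87 and -0.45. The part of muscle and fat in the members' values was not tested. The labelled tissue's own markers were present on every array, for example Mbp, myelin basic protein, at 13.83 to 14.44. Fewer cells of a type and less RNA per cell cannot be told apart in these samples.

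**Figure D1:**
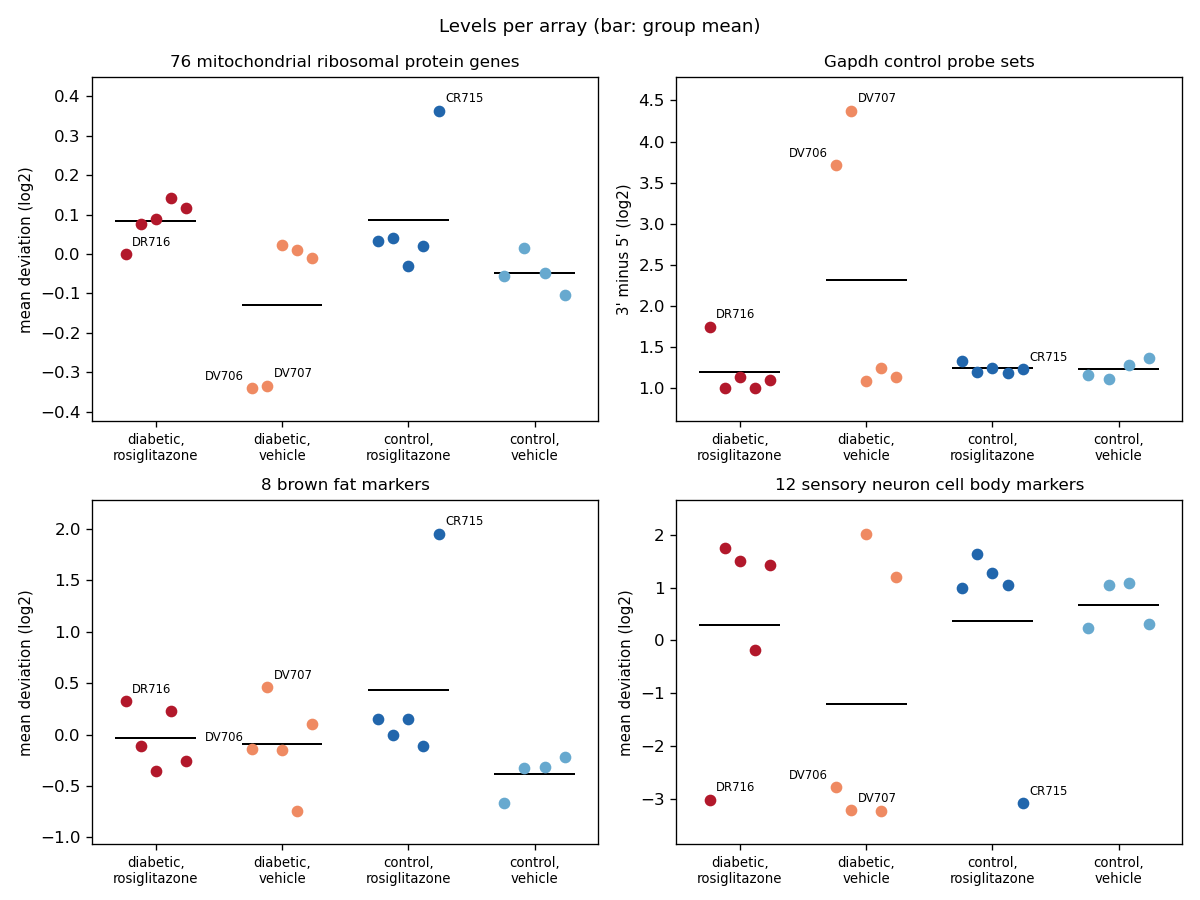
Levels per array in the 4 groups, as points with the group mean as a bar: the 76 members and 2 marker lists (log2, mean deviation from each gene's mean over 19 arrays) and the Gapdh 3' minus 5' difference (log2). DV706 and DV707 lie at -0.34 and -0.33 for the members and at 3.71 and 4.38 for Gapdh, and CR715 at 0.36 for the members and 1.96 for brown fat.

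The members did not shift as a block in DV706 and DV707. 35 of 76 (46.1%) were lower on both than on each of the other 17 arrays, against 11.6% of all tested genes, and 8 (10.5%) were higher on both, against 14.6%. Both arrays had been picked out partly by the members' low level there, so the count of lower members follows in part from that choice. The mean of both arrays minus that of the other 17 spanned -1.60 for Mrps18a to 0.87 for Mrps27, with a median of -0.37. Mrps18a, a large-subunit protein without a bacterial counterpart, read 10.43, 10.87, 10.83, 10.90 and 10.91 in DR, 9.19, 9.05, 10.69, 10.51 and 10.92 in DV, 10.62, 10.67, 10.56, 10.79 and 11.18 in CR and 10.49, 10.65, 10.61 and 10.62 in CV. Its first 2 DV values lie more than 1 unit under all others. Mrps27, a small-subunit protein with RNA-binding repeats, read 8.16, 8.01, 8.07, 7.81 and 8.03 in DR, 9.01, 8.71, 8.12, 8.03 and 7.74 in DV, 8.38, 7.91, 7.82, 7.88 and 8.47 in CR and 7.97, 7.67, 7.84 and 7.86 in CV. The same arrays were its highest, and the promoters of both genes, shown above, hold the ETS and YY1 words.

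The 8 members above all other arrays in DV706 and DV707 were Mrpl3, Mrpl9, Mrpl37, Mrpl39, Mrps2, Mrps9, Mrps24 and Mrps27. Of the lower ones, Mrpl20 averaged -1.59 against the other 17 arrays, Mrps34 -1.51, Mrps6 -1.49, Mrpl28 -1.44, Mrpl14 -1.36, Mrpl24 -1.35, Mrps12, which lies at the decoding site, -1.15, and Mrpl12, the stalk protein that binds translation factors, -0.64. Both subunits took part. 12 of 28 and 9 of 21 large-subunit members with and without a bacterial counterpart were lower on both arrays, as were 9 of 16 and 4 of 10 small-subunit members. DR716 had the next largest Gapdh difference and was the only DR array with few sensory neuron transcripts. It was the lowest DR array in 29 of the 35 lower members (82.9%) and the highest DR array in all 8 higher ones. Over all tested genes that were lower or higher on both DV arrays the shares were 72.4% and 79.9%. Of all 76 members, DR716 was the lowest DR array for 37 (48.7%, against 30.9% of genes) and the highest for 21 (27.6%, against 38.4%).

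**Figure D2:**
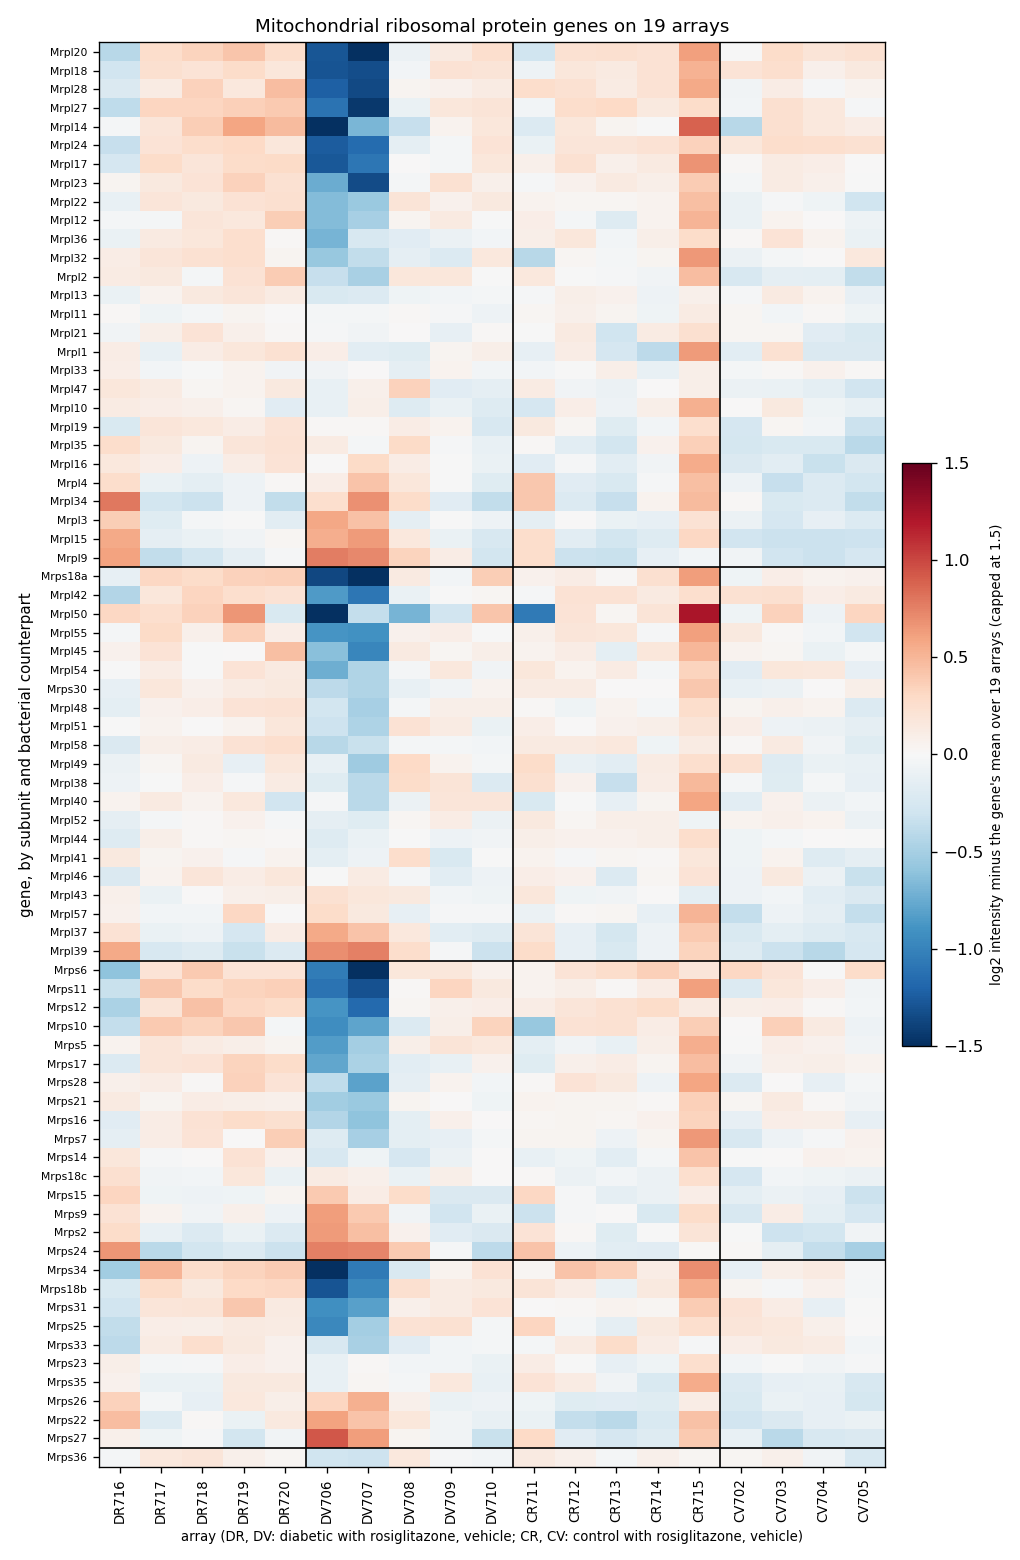
Log2 intensity of each of the 76 members minus its own mean on the 19 arrays (colour, capped at 1.5), with genes in rows by subunit and bacterial counterpart and arrays in columns by group. DV706 and DV707 hold the darkest blue, as for Mrps18a (-1.60 against the other 17 arrays), and red, as for Mrps27 (0.87), and CR715 is red for most rows.

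Probe sets of 1 gene often went opposite ways on those arrays. Of the 32 members with at least 2 probe sets above the filter, 15 had probe sets of different sign for DV706 and DV707 against the other 17 arrays. For Mrps23, a small-subunit protein, 3 probe sets gave -2.40, -0.05 and 0.71, and the value used in all comparisons is that of the second. For Mrpl9, the counterpart of bacterial L9, they gave 0.83, 0.03 and -1.01, the first being the one used. Mrpl39, a large-subunit protein related to threonyl-tRNA synthetase, had 0.82 and 0.50 on its 2 probe sets. Directions given for members in all comparisons, with or without these 2 arrays, are those of the probe set used.

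**Figure D3:**
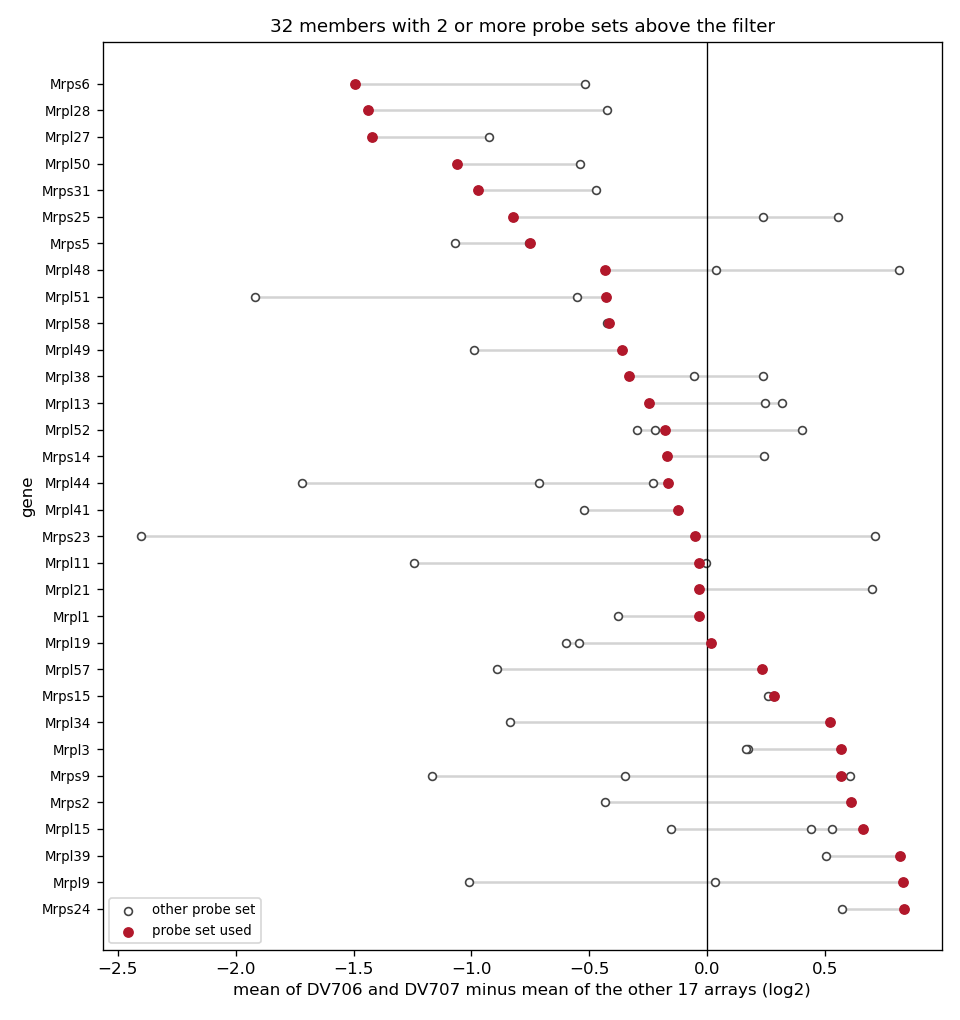
Mean log2 intensity of DV706 and DV707 minus that of the other 17 arrays for each probe set (circle) of the 32 members with at least 2 above the filter, with the probe set used filled. In 15 of the 32 genes the circles lie on both sides of 0.

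The first comparison asked how diabetes bears on the nerve in mice given vehicle. No member passed an adjusted p of 0.05 by limma, and 0% of the 13460 tested genes did. The smallest adjusted p of a member was 0.238. At an unadjusted p under 0.05, 14 members were higher in diabetic nerve, against 10.7% of all tested genes, and 5 were lower, against 7.39%. This makes 18.4% and 6.58% of the members. With each array centred on its median these counts were 15 and 2. They depend on single arrays, with 16 higher and 19 lower without DV710, 16 and 17 without DV709, 8 and 10 without DV708, 3 and 2 without DV706, and 1 and 3 without DV707. Leaving out a control vehicle array gave 4 to 8 higher and 2 to 4 lower. For the centred arrays and for single arrays left out, the shares of all tested genes at that p are not given here. These counts are therefore not read as particular to the members. In all, 29 of 76 were higher, against 52.9% of genes, and the median change was -0.08 against 0.03 for all tested genes. Centring each array moves all genes alike, and the medians were then 0.01 for the members and 0.12 for all tested genes. Before centring, large-subunit members had a median of -0.05 and small-subunit members of -0.19. Without DV706 and DV707, 48 of 76 were higher, the median was 0.06, and 3 members had an unadjusted p under 0.05 and were higher, against 2.54% of genes, and 0 were lower, against 1.96%.

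Mrpl35, a large-subunit protein with a bacterial counterpart, had 9.78, 9.63, 9.95, 9.65 and 9.55 in diabetic vehicle nerve, against 9.39, 9.43, 9.43 and 9.26 in control vehicle nerve. The groups did not overlap, and the change was 0.33 (SE 0.12, limma adjusted p = 0.238). It was 0.34 without DV706 and DV707, and 0.13 in 1 alternative, the mean over its 3 probe sets. Mrpl15 and Mrpl16, counterparts of bacterial L15 and L16, and Mrps35, a small-subunit addition, were also higher without overlap, and Mrpl42, a large-subunit addition, was lower. That makes 4 higher, against 2.63% of genes, and 1 lower, against 2.43%.

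Mrpl24, whose bacterial counterpart starts assembly of the large subunit, had 11.07, 11.16, 12.18, 12.29 and 12.52 in diabetic vehicle nerve, against 12.49, 12.58, 12.57 and 12.55 in control vehicle nerve. Of the diabetic arrays DV710 lay among the controls and DV706 and DV707 more than 1 unit below them, for a change of -0.71 (SE 0.25). Mrpl42 had 11.67, 11.43, 12.42, 12.51 and 12.55 in diabetic vehicle nerve, against 12.75, 12.77, 12.62 and 12.65 in control vehicle nerve. Its change was -0.58 (SE 0.21), again with DV706 and DV707 farthest down. Mrpl39 had 12.15, 12.21, 11.71, 11.43 and 11.13 in diabetic vehicle nerve, against 11.26, 11.13, 11.02 and 11.19 in control vehicle nerve. It differed by 0.57 (SE 0.22), with DV710 within the control range. The other members of the 8 with the smallest p were Mrpl9 with a change of 0.56 (SE 0.22), Mrpl15 with 0.51 (SE 0.19), Mrps26, a small-subunit addition, with 0.33 (SE 0.13), and Mrpl43, a large-subunit addition, with 0.21 (SE 0.09). Without DV706 and DV707 the changes were -0.22 for Mrpl24, -0.20 for Mrpl42, 0.27 for Mrpl39, 0.29 for Mrpl9, 0.24 for Mrpl15, 0.14 for Mrps26 and 0.14 for Mrpl43. All 7 thus kept their sign at a smaller size.

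The second comparison asked how rosiglitazone bears on diabetic nerve. No member passed an adjusted p of 0.05 by limma, and 0% of the tested genes did, with a smallest adjusted p of 0.497 for the members. In all, 61 of 76 members were higher with rosiglitazone, against 47.2% of genes, with a median change of 0.21 against -0.02 for all tested genes. 27 had an unadjusted p under 0.05 and were higher, 35.5% against 4.13% of genes, and 0 were lower, against 5.56%. With each array centred on its median, 51 of 76 members were higher, 15 had such a p, and the medians were 0.12 for the members and -0.10 for all tested genes. A fit to the groups compared alone gave 7 such members, and the mean over all probe sets of a gene gave 21 and a median of 0.13. The count was 5 without DV706, 5 without DV707 and between 15 and 36 without any other single array. For these alternative counts the shares of all tested genes are not given here, so they are not read as particular to the members. No member's groups were separate in either direction, against 0.245% of genes for higher and 0.386% for lower. The diabetic vehicle arrays include DV706 and DV707. Without them 61 of 76 members were higher, the median was 0.08 against -0.01 for all genes, and 0 had an unadjusted p under 0.05, against 0.624% of genes for higher and 1.29% for lower. Without those 2 and DR716 the median was 0.09 and 10 members were higher at an unadjusted p under 0.05, against 1.2% of genes, a setting chosen after the data were seen. When the 5 arrays with few sensory neuron transcripts were left out, 60 of 76 were higher and 13 passed that p, against 2.32% of genes. That setting leaves only DV708 and DV710 in the diabetic vehicle group, and it too was chosen after the data were seen. The share of all genes that were higher in it is not given here.

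Mrps17, the counterpart of a bacterial protein that binds the small subunit's RNA, had 11.18, 11.56, 11.59, 11.72 and 11.66 in diabetic rosiglitazone nerve, against 10.61, 10.91, 11.23, 11.28 and 11.46 in diabetic vehicle nerve. DV706 and DV707 were lowest, the other 3 DV arrays lay above DR716, and the change was 0.45 (SE 0.15, limma adjusted p = 0.497). Mrpl14, which sits at the face between the subunits, had 9.64, 9.86, 10.04, 10.26 and 10.14 in diabetic rosiglitazone nerve, against 7.92, 8.99, 9.32, 9.72 and 9.84 in diabetic vehicle nerve. DV706 was lowest, and the change of 0.83 (SE 0.30) was 0.52 without that array. Mrpl36, one of the smallest large-subunit proteins, had 10.45, 10.68, 10.72, 10.80 and 10.56 in diabetic rosiglitazone nerve, against 9.85, 10.30, 10.38, 10.46 and 10.51 in diabetic vehicle nerve. Only DR716 lay inside the diabetic vehicle range, and the change was 0.34 (SE 0.12). Of the other members with the smallest p, Mrps28 differed by 0.41 (SE 0.15), Mrps16 by 0.36 (SE 0.13), Mrps21 by 0.31 (SE 0.12), Mrpl42 by 0.51 (SE 0.20) and Mrpl28 by 0.64 (SE 0.26). The first 3 are small-subunit proteins with bacterial counterparts, and Mrps16 is mutated in a fatal infantile lactic acidosis in humans. Without DV706 and DV707 the 8 changes were 0.22 for Mrps17, 0.36 for Mrpl14, 0.19 for Mrpl36, 0.19 for Mrps28, 0.15 for Mrps16, 0.10 for Mrps21, 0.13 for Mrpl42 and 0.10 for Mrpl28.

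**Figure D4:**
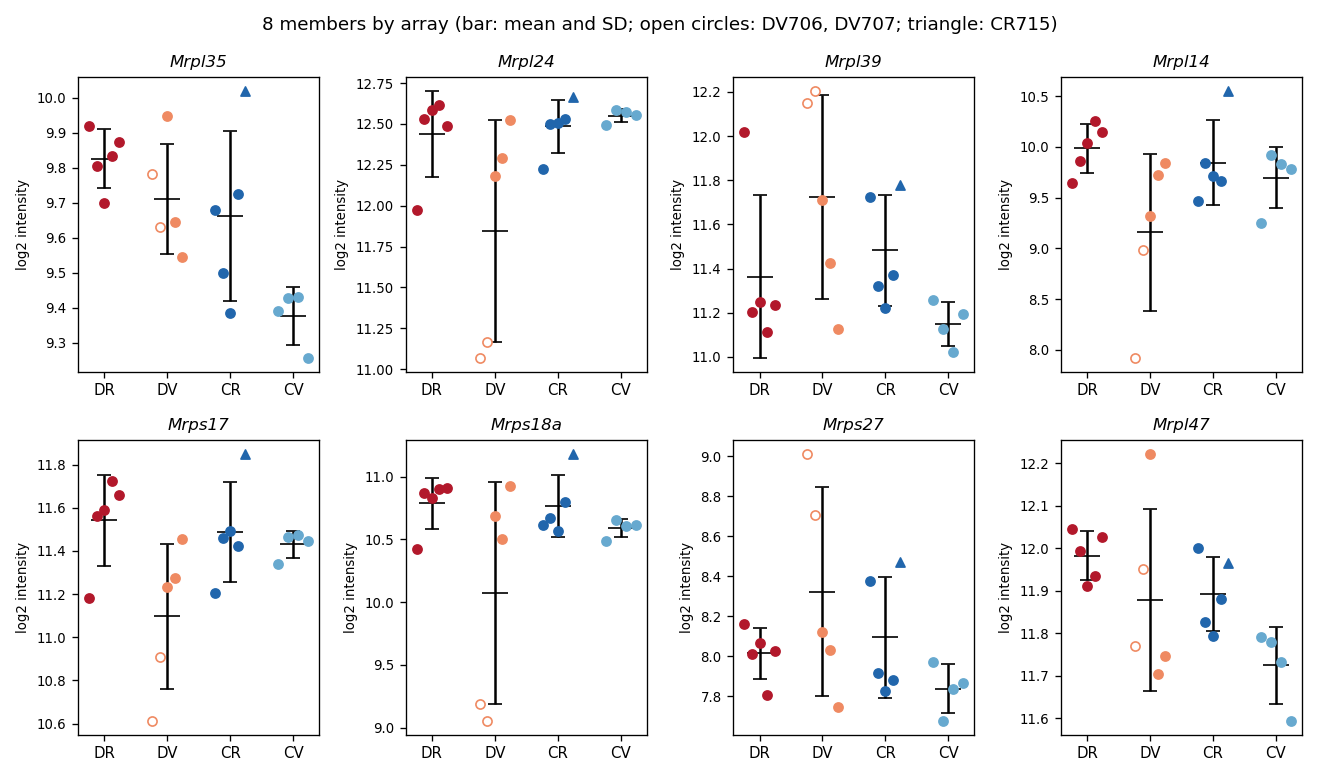
Log2 intensity of 8 members on every array by group (DR and DV, diabetic with rosiglitazone and vehicle; CR and CV, control with rosiglitazone and vehicle), with the group mean and SD as bars. Open circles mark DV706 and DV707, lowest of the diabetic vehicle arrays for Mrpl24, Mrpl14, Mrps17 and Mrps18a and highest for Mrpl39 and Mrps27, and triangles mark CR715.

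The third comparison asked the same of rosiglitazone in control mice. No member passed an adjusted p of 0.05 by limma (0% of tested genes), and the smallest adjusted p was 1.0. The members lay to one side, with 70 of 76 higher, against 50.6% of genes, and a median change of 0.12 against 0.003. The lowest change was -0.07. 4 members were higher at an unadjusted p under 0.05, against 1.48% of genes, and 0 were lower, against 1.35%. The groups were separate in 7 members, all higher, 9.21% against 1.58% of genes for higher and 1.87% for lower, namely Mrpl2, Mrpl15, Mrpl22, Mrpl28, Mrpl44, Mrpl47 and Mrps12. CR715 was the highest of the 19 arrays for 45 members (59.2%, against 10.6% of genes) and above the other 4 CR arrays for 60 (78.9%, against 33.9% of genes). It had been picked out by the members' high level, so these counts follow in part from that choice. Without CR715, 56 of 76 were higher and the median was 0.07 against 0.02. Then 0 members had an unadjusted p under 0.05, against 1.11% of genes for higher and 1.87% for lower.

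Mrpl35 had 9.68, 9.50, 9.38, 9.72 and 10.02 in control rosiglitazone nerve, against 9.39, 9.43, 9.43 and 9.26 in control vehicle nerve. CR713 lay among the controls, and the change of 0.29 (SE 0.12) was 0.20 without CR715. Mrpl2, whose bacterial counterpart lies near the peptidyl transferase centre, had 10.85, 10.68, 10.66, 10.63 and 11.15 in control rosiglitazone nerve, against 10.45, 10.55, 10.54 and 10.31 in control vehicle nerve. All CR arrays lay above all CV arrays, by 0.33 (SE 0.15) on average and by 0.24 without CR715. Mrpl44, which has a ribonuclease III fold, had 11.94, 11.90, 11.90, 11.92 and 12.10 in control rosiglitazone nerve, against 11.78, 11.81, 11.85 and 11.84 in control vehicle nerve. The groups were again separate, with CR715 highest, and the change was 0.13 (SE 0.08). The other members by the smallest p were Mrpl57 with 0.30 (SE 0.13), Mrps35 with 0.29 (SE 0.13), Mrpl4, which lines the exit tunnel, with 0.31 (SE 0.15), Mrpl16 with 0.27 (SE 0.13) and Mrpl47, a protein near the exit tunnel, with 0.17 (SE 0.10). Without CR715 the changes were 0.19 for Mrpl57, 0.18 for Mrps35, 0.22 for Mrpl4, 0.13 for Mrpl16, 0.10 for Mrpl44 and 0.15 for Mrpl47. With all arrays, another probe set of Mrpl57 above the filter gave -0.27. Other probe sets of Mrpl44 gave -0.20, 0.10 and 0.17. All probe sets had one sign here in 29 of the 42 members with at least 2, whatever their intensity.

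**Figure D5:**
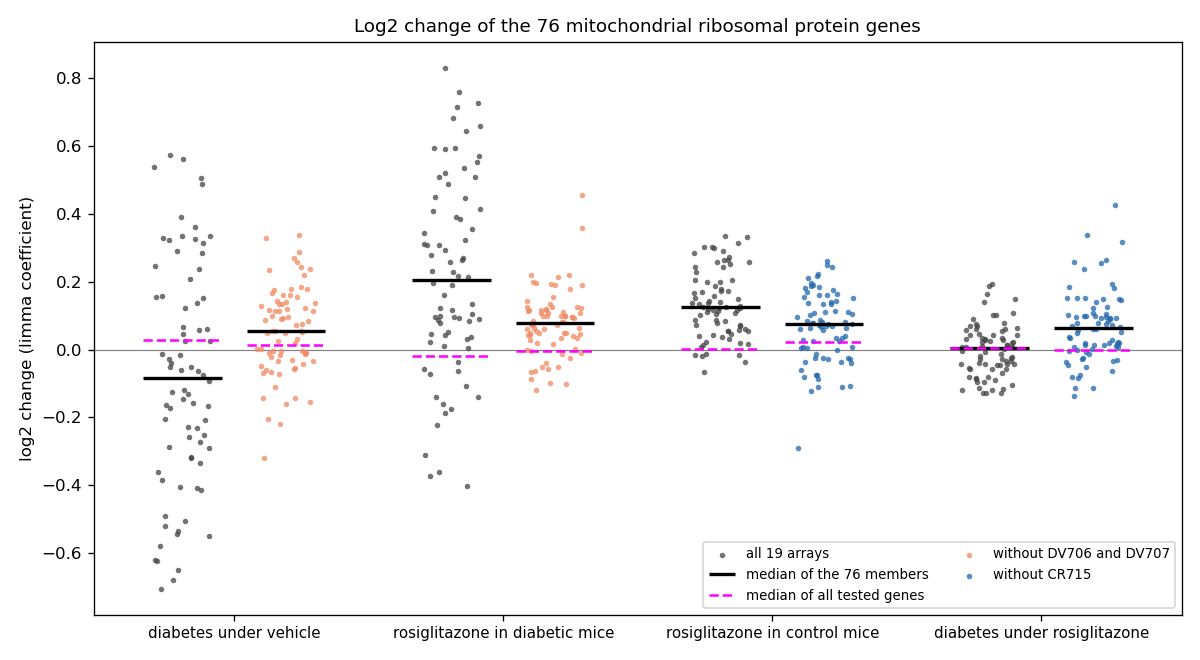
Log2 change of each of the 76 members (points) in 4 comparisons with all 19 arrays and without the named arrays, with the members' median (black bar) and the median of the 13460 tested genes (dashed bar). Diabetes under vehicle has a member median of -0.08 with all arrays (0.01 with each array centred, where all genes have 0.12) and 0.06 without DV706 and DV707, and rosiglitazone in diabetic mice has 0.21 and, without them, 0.08.

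The fourth comparison set diabetic against control nerve under rosiglitazone. 39 of 76 were higher in diabetic nerve, against 51.7% of genes, the median change was 0.004, and the changes spanned -0.13 to 0.19. None passed an adjusted p of 0.05 by limma (0% of tested genes), and none had an unadjusted p under 0.05, against 0.468% of genes for higher and 0.817% for lower. No member's groups were separate, against 0.178% of genes for higher and 0.223% for lower. Mrpl44 was lower by -0.12 (SE 0.07), and Mrps26, Mrpl35 and Mrps22 were higher by 0.19 (SE 0.12), 0.16 (SE 0.11) and 0.19 (SE 0.17). Mrps22, a small-subunit addition mutated in human mitochondrial disease, had 10.83, 10.18, 10.39, 10.28 and 10.52 in diabetic rosiglitazone nerve, against 10.28, 10.02, 9.97, 10.15 and 10.82 in control rosiglitazone nerve. CR715 and DR716 were the highest array of their groups. Without CR715, 58 of 76 members were higher, the median was 0.06, and 4 had an unadjusted p under 0.05 and were higher, against 1.2% of genes. When the 5 arrays with few sensory neuron transcripts were left out, 63 were higher and 13 had an unadjusted p under 0.05 and were higher, against 2.32% of genes. That setting was chosen after the data were seen.

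The interaction, the rosiglitazone effect in diabetic minus that in control mice, passed an adjusted p of 0.05 for no member by limma (0% of tested genes), with a smallest adjusted p of 0.748. 44 of 76 members were above 0, against 48.2% of genes. The median was 0.07 with all arrays, against -0.02 for all tested genes, and -0.02 with each array centred, against -0.11 for all tested genes. Without DV706 and DV707 it was -0.07, against -0.01. Only Mrpl39 had an unadjusted p under 0.05, with -0.69 (SE 0.30), against 2.89% of genes for lower and 1.88% for higher, and it was -0.39 without these 2 arrays. Mrpl4, Mrps27 and Mrps24, the counterpart of bacterial S3, followed with -0.42 (SE 0.21), -0.57 (SE 0.29) and -0.65 (SE 0.34).

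Some members are given for their known roles, in one comparison each. Mrpl3, which lies near the peptidyl transferase centre and is mutated in a human cardiomyopathy, differed by 0.32 in diabetes under vehicle, and by 0.09 without DV706 and DV707. With rosiglitazone in diabetic mice Mrpl12 differed by 0.32, and by 0.07 without these arrays. Mrpl45, which ties the ribosome to the inner membrane, differed there by 0.42 and without them by 0.06, and Mrps12 by 0.52 and 0.08. Mrps34, mutated in Leigh syndrome, differed by 0.73 and 0.18, Mrps18a by 0.72 and 0.08, and Mrps30 by 0.27 and 0.11. Mrps36, no ribosomal protein by function, differed by 0.19 and 0.06. Mrpl58, also called Ict1, which frees stalled ribosomes, differed by 0.26 and 0.12. None of these passed the adjusted threshold.

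Of the other genes of mitochondrial translation and ribosome assembly, 63 were tested, and none passed the adjusted threshold in any comparison. In diabetes under vehicle 38 of 63 were higher with a median of 0.10, in rosiglitazone in diabetic mice 32 with a median of 0.003, and in rosiglitazone in control mice 51 with a median of 0.13. Qrsl1, a subunit of the enzyme that makes mitochondrial glutaminyl-tRNA, had 10.15, 9.88, 9.45, 9.17 and 8.73 in diabetic vehicle nerve, against 8.83, 8.82, 8.76 and 8.71 in control vehicle nerve. DV706 and DV707 were highest, and the changes were 0.70 (SE 0.21) with diabetes and -0.52 (SE 0.20) with rosiglitazone in diabetic mice, or 0.34 and -0.16 without these arrays. Mterf4, a factor of large-subunit assembly, had 8.74, 8.65, 9.45, 9.75 and 9.53 in diabetic vehicle nerve, against 9.76, 9.71, 9.64 and 9.73 in control vehicle nerve. These arrays were its lowest, and the changes were -0.49 (SE 0.19) and 0.48 (SE 0.18), or -0.13 and 0.13 without them. Ddx28, an assembly helicase, and Mtfmt, which formylates the initiator tRNA, differed by 0.60 and 0.33 with diabetes, and by 0.31 and 0.26 without DV706 and DV707. Rpusd4, a pseudouridine synthase, and Sars2, a tRNA synthetase, differed by 0.28 and 0.48 with rosiglitazone in diabetic mice, and by 0.20 and 0.07 without these arrays. In control mice Rpusd3, Nsun4, the partner of Mterf4, Gatb, the partner of Qrsl1, and Rars2 differed by 0.52, 0.25, 0.50 and 0.30 with rosiglitazone, and by 0.37, 0.21, 0.27 and 0.21 without CR715.

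Dap3, a small-subunit GTPase whose symbol the rule does not take, differed by 0.13 with diabetes under vehicle and by 0.002 and 0.23 with rosiglitazone in diabetic and in control mice. Tufm, the elongation factor, differed by 0.14, -0.05 and 0.16, and Oxa1l, which inserts new proteins into the inner membrane, by 0.35, -0.07 and 0.19. The arrays that stood apart enter these changes. In CR715 Dap3 read 11.33, against 10.64 to 11.07 on the other CR arrays, and Tufm 10.72, against 9.92 to 10.25. Oxa1l read 10.49 and 10.55 in DV706 and DV707, against 10.01 to 10.33 on the other DV arrays. Among regulators, Nrf1, Tfam and Ppargc1a lay within 0.16 of 0 in these 3 comparisons. Polrmt, the mitochondrial RNA polymerase, had 10.68, 10.81, 9.80, 9.30 and 8.86 in diabetic vehicle nerve, against 9.09, 8.86, 8.74 and 8.91 in control vehicle nerve. DV706 and DV707 were highest again, and the change was 0.99 (SE 0.42, limma adjusted p = 0.25), with -0.84 (SE 0.39) for rosiglitazone in diabetic mice. Without these arrays the changes were 0.42 and -0.27.

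Genes of the respiratory chain, which the mitochondrial ribosome serves, and of the cytosolic ribosome were set beside the members as counts. Of 79 oxidative phosphorylation genes, 33 were higher with diabetes under vehicle, and 57 and 69 with rosiglitazone in diabetic and in control mice, with medians of -0.03, 0.11 and 0.10. Of 43 cytosolic ribosomal protein genes the counts were 16, 28 and 16, with medians of -0.05, 0.07 and -0.02. Their levels were -0.17 and -0.26 for oxidative phosphorylation and -0.08 and -0.16 for the cytosolic ribosome in DV706 and DV707. In CR715 they were 0.30 and 0.13. No difference between the members and these lists was tested.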

How the data were processed

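RNA of 19 sciatic nerves was measured on Affymetrix Mouse Genome arrays. The deposited values are intensities on a linear scale, 1 per probe set, made by the authors with RMA per the submitters' processing notes, which give no version; the return from log2 to a linear scale is not stated. The deposited intensities were log2-transformed, adding nothing first. Of 45101 probe sets, 34945 have 1 gene symbol, 932 several and 9160 none, and only the first were used. Genes above the 40th percentile of mean intensity were tested with limma 3.58.1 in R 4.3.3 (group means over 19 arrays, eBayes, Benjamini-Hochberg over 13460 genes), after a check on simulated data. Tables and figures used Python 3.11.15, pandas 2.3.3, scipy 1.17.1 and matplotlib 3.10.9. Groups came from sample titles. The number of arrays limits the precision.

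The named members were the 8 with the smallest p in each of the first 3 comparisons and the 4 in the others, the 4 with the highest and lowest mean and SD, and 11 chosen for known roles; of the other translation genes, the 4 with the smallest p and a few regulators. The members and lists were chosen with earlier results of these data known. Alternatives covered the filter, probe set choice, normalization, offset, array weights, a Gapdh covariate, the test and arrays left out. Promoters came from RefSeq (GRCm38.p6).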

Additional observations from a re-analysis of the deposited data

Results flagged for a closer look

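An array was set apart where its gap to the next, divided by its group's range, passed Dixon's 95% critical value. Only the 43 named members and the members' level were examined, and it held for 18 of 176 groups of values (10.2%). Over all 76 members it held for 12.8% of groups of values and over all tested genes for 9.1%. Chance gives about 1 in 20 for independent values, which these are not, since they share arrays and some members were named for a large SD or a small p. The values are log2 intensities and the causes were not tested.

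DR716 stood apart from the other diabetic rosiglitazone arrays in 11 members. It was highest for Mrpl15 at 11.57, Mrpl39 at 12.02 and Mrps24 at 12.68. It was lowest for Mrpl20 at 11.47, Mrpl24 at 11.97, Mrpl42 at 12.08, Mrpl44 at 11.65, Mrps12 at 10.98, Mrps18a at 10.43, Mrps34 at 9.91 and Mrps6 at 12.19. The Gapdh 3' minus 5' difference of that array was 1.75. Its marker levels were -3.02 for sensory neurons, 1.57 for adipocytes and 2.82 for skeletal muscle.

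CR715 was far above the other control rosiglitazone arrays in the members' level, at 0.36 against 0.04 for the next. It was also highest for Mrpl16 at 11.74, Mrpl44 at 12.10, Mrpl57 at 11.67, Mrps16 at 12.30 and Mrps21 at 12.50. CV705 was lowest of its group for Mrpl52 at 13.47.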

How the results depend on the processing

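No member passed an adjusted p of 0.05 by limma under any alternative run, and all 808 alternative values of the 32 pairs of a comparison and a member with one of its smallest p kept their direction. The other named members were not included in that count. The pairs were picked for a small p in these data, and most settings reuse the same arrays and probe set, so a kept direction was likely beforehand. Not every other probe set was a setting of its own. Of these, 1 of Mrpl9 gave -0.15 with diabetes under vehicle, and 1 of Mrpl57 gave -0.27 with rosiglitazone in control mice, opposite to the probe sets used. Also opposite, 1 of Mrpl44 gave -0.20 with rosiglitazone in control mice and 0.03 with diabetes under rosiglitazone. Below the filter on low values, 1 of Mrps21 gave -0.20 with rosiglitazone in diabetic mice. There Mrpl35 gave -0.14 on 1 with diabetes under vehicle, and -0.05 and -0.10 with diabetes under rosiglitazone, again opposite. The members' median changed sign in places. With diabetes under vehicle it was -0.08, against 0.0623 with the Gapdh difference as a covariate, 0.0553 without DV706 and DV707 and 0.0527 once the 5 arrays with few sensory neuron transcripts were left out. The interaction was 0.07, against -0.0665 with that covariate and -0.0711 without DV706 and DV707. With each array centred on its median they were 0.01 and -0.02, a shift shared by all tested genes, whose medians moved to 0.12 and -0.11, so the members' distance to them stayed as it was. The settings that leave out DV706 and DV707, 3 arrays, or the 5 arrays with few sensory neuron transcripts were chosen after the data were seen. The last of these leaves only DV708 and DV710 in the diabetic vehicle group. CR715 was also singled out from these data. The causes were not tested.

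Leaving out 1 array at a time, the median ranged from -0.13 to -0.05 for diabetes under vehicle, 0.15 to 0.24 for rosiglitazone in diabetic mice, 0.07 to 0.15 for rosiglitazone in control mice, -0.03 to 0.06 for diabetes under rosiglitazone and 0.04 to 0.16 for the interaction, with 0 members past the threshold each time. The smallest adjusted p of a member by limma was then 0.0566, without DV710. No paired analysis was possible because the groups share no replicate numbers.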
